A study of Rattus norvegicus with 22 samples.

Results

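This account concerns 51 genes that respond to interferon, among them the immunoproteasome and the peptide-loading genes that interferon-γ raises, in rat liver after ozone and after cutting of the hepatic vagus nerve. The members were chosen by symbol and not by a threshold on their values, though with earlier results of these data known. Of the 51 symbols 50 were found among 14971 genes (Xaf1 as XAF1), all 50 were among the 12424 genes with enough reads to be tested, and Ifit1 was not analysed here.

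Interferons are cytokines released when cells sense viral nucleic acid or are activated by immune signals. They bind receptors coupled to Janus kinases, which activate STAT proteins. Type I interferon acts mainly through a complex with Stat2 and Irf9 that binds the interferon-stimulated response element, interferon-γ mainly through the gamma-activated site, and both raise a shared set of antiviral genes. Hepatocytes, Kupffer cells and other liver cells express these genes at a basal level that is held up by tonic signalling, and the immunoproteasome is a form of the proteasome with exchanged catalytic subunits that supplies peptides for presentation on MHC class I.

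RNA of 10 to 20 mg of liver was sequenced from 22 rats. Rats bought at 10 to 11 weeks of age had sham surgery or hepatic vagotomy at 12 weeks, recovered for 5 to 6 days, were exposed to air or to 1.0 ppm ozone, 4 hours a day, for 1 day or 2 days, and were killed within 2 hours of exposure. Which rats had 1 day and which had 2 is not given in the sources used here. There were 5 sham rats in air, 6 vagotomised rats in air, 6 sham rats in ozone and 5 vagotomised rats in ozone, and replicate numbers are those of the labels within each group. Comparisons were made for ozone against air within each kind of surgery, for vagotomy against sham within each exposure, and for the difference between the ozone changes of vagotomised and sham rats.

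Values are normalised read counts, in which the reads of a gene were divided by a size factor of its library, with 14098863 to 21141337 reads per library. Genes rose or fell, in the words used here, where limma's moderated test on log2(count + 1), fitted over all 12424 genes and 22 libraries, gave a Benjamini-Hochberg adjusted p under 0.05, and every adjusted p below is of that test unless another is named. Changes are on that log2 scale, where a fall of 1 log2 unit is a halving. All 10 hepatocyte markers, among them the albumin gene Alb, had enough reads to be tested. In 4 libraries the 5.8S ribosomal RNA row stood under 200 (38.1 to 179.5, against 342 to 3775 in the other 18), namely vagotomised air replicates 1 and 5, sham ozone replicate 3 and vagotomised ozone replicate 1. They are called the libraries low in 5.8S. Values are also given without them for the immunoproteasome and loading genes, the subunit ratios, the correlations and single members named below.

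Most of the members were lower after ozone, and none rose. In sham rats 31 of 50 members fell (62.0%), beside 13.8% of all genes tested, and 0 rose, beside 14.6% of all genes (0 also with edgeR, DESeq2 and every other scaling tried, 32 of 50 members and 4845 of 12424 genes having an unadjusted p under 0.05 in either direction). Every sham ozone library lay below every sham air library for 18 members (36.0%), beside 7.21% of all genes, and for 0 members did every ozone library lie above, beside 8.15% of all genes. The median change of the members was -0.60 and that of all genes 0.01. With equal column totals in place of the size factors 33.9% of all called genes rose, in place of 51.3%, and 34 members fell. For 14 members the fall was at least 2-fold, with Irgm, Cxcl10, Igtp, Mx1 and Parp14 leading. The share of all genes with a fall of that size was not calculated, so the count is not read as particular to the members.

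In vagotomised rats 19 of 50 members fell (38.0%), beside 9.63% of all genes, and 0 rose, beside 11.4% (30 of 50 members and 4021 of 12424 genes had an unadjusted p under 0.05 in either direction). All 5 vagotomised ozone libraries lay below all 6 vagotomised air libraries for 13 members (26.0%), beside 5.21% of all genes, and above them for 0, beside 6.54%. The median change was -0.38, against -0.01 over all genes. For 4 members the fall was at least 2-fold, again without a share of all genes to set beside it. The largest falls were those of Cxcl10, Irgm, Parp14, Igtp and Parp9. The 19 members that fell in vagotomised rats were all among the 31 that fell in sham rats, which is 61.3% of the sham falls. Such overlap was also common over all genes, where 815 fell in both, of 1717 that fell in sham and 1197 in vagotomised rats. The ozone changes of the 2 surgery groups correlated at 0.86 over members and 0.75 over all genes. These are bulk samples, in which fewer cells of a type and less RNA per cell cannot be told apart.

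**Figure D1:**
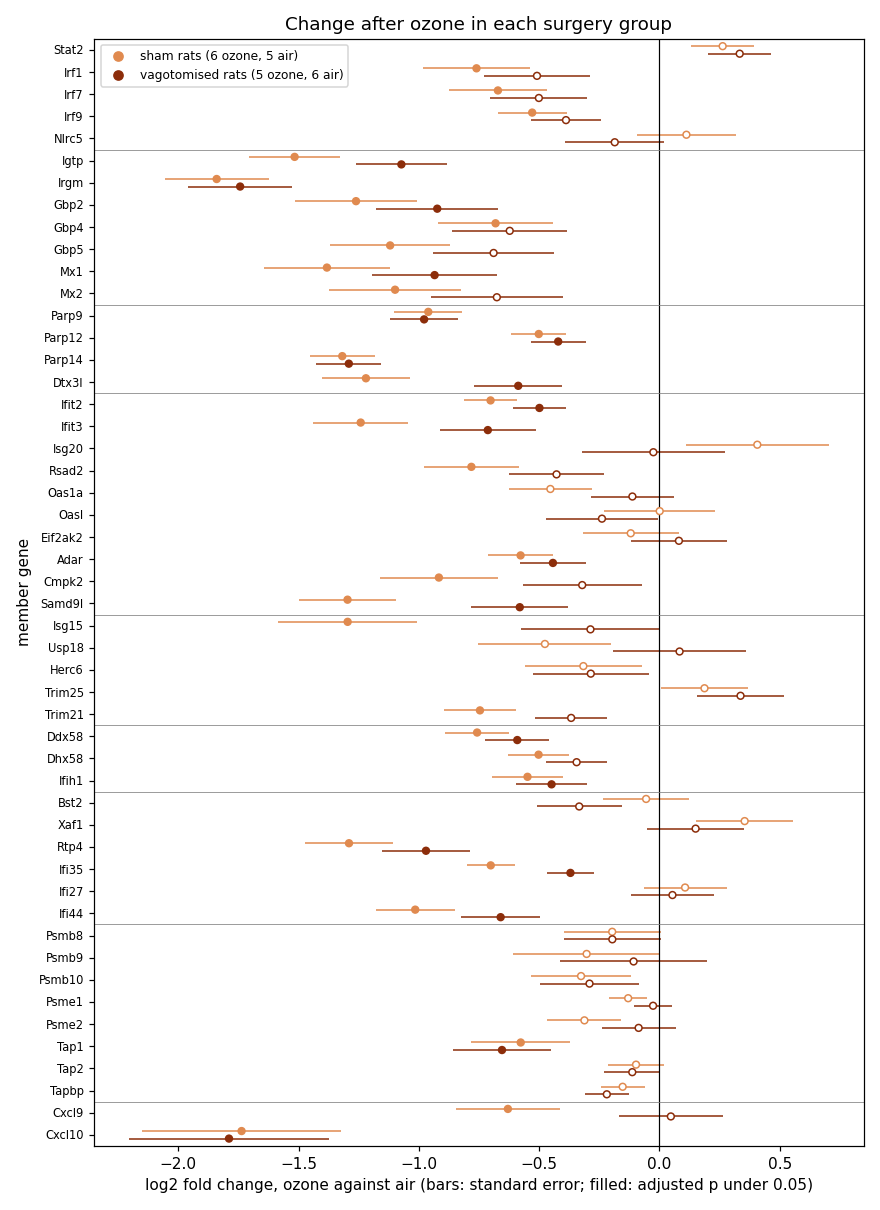
Log2 fold change of each member after ozone in sham rats (light, 6 ozone against 5 air) and vagotomised rats (dark, 5 against 6), with standard errors, grouped by role; filled points passed an adjusted p of 0.05. No filled point lies to the right of 0, and the immunoproteasome genes near the bottom lie close to 0 with the exception of Tap1.

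To show where interferon-activated factors could bind, the promoters of 6 members are given, the one with the smallest p after ozone in each of 6 role groups among members that hold the core of the interferon-stimulated response element. Sequences are the 250 bases before the gene start in RefSeq (build GRCr8, whereas the submitters' processing notes name rn6), 5′ to 3′ on the gene's strand, with the core in capitals. The core was searched as GAAANNGAAA on both strands, so that it appears either in that form or as its reverse complement.
Parp14 promoter (chr11:78407884-78408133, plus strand): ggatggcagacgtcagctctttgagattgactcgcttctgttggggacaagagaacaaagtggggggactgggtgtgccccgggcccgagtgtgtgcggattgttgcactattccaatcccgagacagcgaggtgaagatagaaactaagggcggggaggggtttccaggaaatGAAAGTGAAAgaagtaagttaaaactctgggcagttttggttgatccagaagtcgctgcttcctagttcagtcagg
Irgm promoter (chr10:33742579-33742828, minus strand): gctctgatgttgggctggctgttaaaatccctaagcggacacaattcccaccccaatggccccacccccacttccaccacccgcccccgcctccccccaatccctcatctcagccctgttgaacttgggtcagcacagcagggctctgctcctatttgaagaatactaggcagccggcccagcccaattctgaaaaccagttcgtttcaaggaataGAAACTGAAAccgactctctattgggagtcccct
Ifit3 promoter (chr1:241527076-241527325, plus strand): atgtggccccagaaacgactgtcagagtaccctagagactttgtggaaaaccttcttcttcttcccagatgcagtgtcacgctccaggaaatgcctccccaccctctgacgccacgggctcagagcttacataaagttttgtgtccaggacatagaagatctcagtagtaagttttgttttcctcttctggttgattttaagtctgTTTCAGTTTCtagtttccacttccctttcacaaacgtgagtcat
Ifi44 promoter (chr2:243303841-243304090, minus strand): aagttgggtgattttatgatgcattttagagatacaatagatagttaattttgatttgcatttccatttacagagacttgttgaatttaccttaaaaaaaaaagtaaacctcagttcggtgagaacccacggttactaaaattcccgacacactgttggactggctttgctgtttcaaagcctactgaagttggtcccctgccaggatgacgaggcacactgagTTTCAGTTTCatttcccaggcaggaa
Trim21 promoter (chr1:166399372-166399621, minus strand): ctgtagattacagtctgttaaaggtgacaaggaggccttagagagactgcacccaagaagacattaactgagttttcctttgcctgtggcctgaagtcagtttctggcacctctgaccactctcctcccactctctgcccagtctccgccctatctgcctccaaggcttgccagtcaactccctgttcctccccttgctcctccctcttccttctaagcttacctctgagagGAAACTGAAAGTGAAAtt
Cxcl10 promoter (chr14:15988816-15989065, plus strand): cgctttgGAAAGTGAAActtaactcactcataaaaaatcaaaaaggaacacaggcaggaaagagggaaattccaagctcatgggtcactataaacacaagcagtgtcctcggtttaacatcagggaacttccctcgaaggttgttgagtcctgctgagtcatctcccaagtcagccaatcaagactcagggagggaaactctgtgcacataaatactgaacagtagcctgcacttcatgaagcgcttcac

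The core starts 76 bases before the gene start in Parp14, 34 in Irgm, 44 in Ifit3 and 26 in Ifi44, which has a second match 26 bases after the start. Trim21 holds 2 overlapping matches, at 18 and 12 bases before the start, and Cxcl10 holds its match farthest out, at 243 bases. RefSeq promoters of 300 bases (250 before and 50 after the start) were at hand for 41 members. Of these 27 (65.9%) held the core, beside 3.92% of all 33469 promoters and 3.24% of the 9858 promoters of genes tested. The gamma-activated site, searched as TTCNNNGAA on both strands, was in 9 of the 41 (22%), beside 8.87% of all promoters and 6.89% of those of genes tested. Parp14 and Irgm hold both motifs. The core was present in about equal shares of members that fell and that did not, in 16 of 24 that fell in sham rats (66.7%) and in 11 of 17 that did not pass (64.7%), with 4.88% among all genes that fell in sham rats. It was also in 6 of the 8 immunoproteasome and loading genes, among them Psmb8, Psmb10, Tap1 and Tap2. A match is a run of letters and not a measured binding site, and the table had no entry for Ifit1, Ifit2, Isg15, Usp18, Mx2, Ddx58, Dhx58, Rtp4, Adar and Nlrc5.

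Among the transcription factors, 3 of 5 fell in sham rats and 0 of 5 in vagotomised rats. Irf9, the DNA-binding subunit of the type I interferon complex, had counts of 261, 269, 271, 349.99 and 379 in the sham air livers and from 145 to 278 (median 209.9) in the sham ozone livers, which overlapped. In vagotomised rats Irf9 ran from 235 to 301 (median 278) in air and stood at 189.8, 208, 209.9, 211 and 226 in ozone, with all 5 ozone livers below all 6 air livers. Irf9 fell by 0.53 log2 units (SE 0.14, adjusted p = 0.00782) in sham rats, and in vagotomised rats it differed by -0.39 log2 units (SE 0.14, adjusted p = 0.0572), a value that passed in 10 of 34 alternative settings, edgeR and DESeq2 among them. Irf1, an early target of interferon-γ, stood at 328, 345, 349, 393 and 424 in sham air and from 107 to 351 (median 208) in sham ozone. Its vagotomised values ran from 254 to 436 (median 351) in air and were 193, 205, 208, 291 and 311 in ozone. The groups of Irf1 overlapped in both kinds of surgery. Irf1 fell by 0.76 log2 units (SE 0.22, adjusted p = 0.012) in sham rats, while the change of -0.51 ± 0.22 (SE) in vagotomised rats did not pass (adjusted p = 0.108). Irf7, which amplifies type I interferon output, fell by 0.67 log2 units (SE 0.20, adjusted p = 0.0151) in sham rats, a call that was lost without sham air replicate 2 (adjusted p = 0.0526). In vagotomised rats Irf7 differed by -0.50 log2 units (SE 0.20, adjusted p = 0.0822), with every ozone liver below every air liver. That change passed in 2 of 34 alternative settings.

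Stat2, the partner of Irf9 in the same complex, did not pass, and its changes were 0.26 in sham and 0.33 in vagotomised rats (adjusted p = 0.142 and 0.0747). Nlrc5, the activator of MHC class I genes, had values of opposite sign in the 2 groups and did not pass in either (0.11 ± 0.21 and -0.19 ± 0.21, SE).

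Upstream of these factors, a list of receptors, kinases and STATs outside the members was read alongside. Of 10 such genes tested, 6 fell and 0 rose in sham rats, beside 13.8% and 14.6% of all genes. In vagotomised rats 4 fell and 1 rose, beside 9.63% and 11.4%. Tyk2, a kinase of the type I receptor, fell by 0.78 log2 units (SE 0.11, adjusted p = 9.63e-06) and fell by 0.49 log2 units (SE 0.11, adjusted p = 0.00187) in sham and vagotomised rats. The receptor chain genes Il10rb and Ifnar2 differed by -0.79 and -0.53 in sham rats, where both fell, and by -0.62 (fell) and -0.26 (adjusted p = 0.108) in vagotomised rats. The interferon-γ receptor chains parted in vagotomised rats, where Ifngr2 fell by 0.67 log2 units (SE 0.19, adjusted p = 0.0145) and Ifngr1 rose by 0.37 log2 units (SE 0.10, adjusted p = 0.0105). Of 15 ligand genes searched, 2 were found among the 14971 genes, and both were tested. These 2, Il18 and Il15, are interleukin genes, so no interferon gene of the list was analysed here. Il18 did not pass in either group. The low Il15 (16.3 ± 4.81 in sham air, SD, n = 5) fell by 0.90 log2 units (SE 0.33, adjusted p = 0.0418) in sham and fell by 1.10 log2 units (SE 0.33, adjusted p = 0.018) in vagotomised rats.

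The 3 cytosolic RNA sensors all fell in sham rats, and 2 of them fell in vagotomised rats. Ddx58, which encodes the sensor RIG-I, had counts of 412, 519, 633, 635 and 805 in sham air and from 269 to 416 (median 359) in sham ozone, and from 503 to 634 (median 546) in vagotomised air and 329.8, 334, 387, 395 and 397 in vagotomised ozone. The sham groups overlapped and the vagotomised groups did not. Ddx58 fell by 0.76 log2 units (SE 0.13, adjusted p = 0.000179) in sham and fell by 0.59 log2 units (SE 0.13, adjusted p = 0.00265) in vagotomised rats. Dhx58, a helicase that regulates the other sensors, stood at 245, 273, 299, 336 and 349.95 in sham air and from 154 to 271 (median 208) in sham ozone, then from 256 to 332 (median 286) in vagotomised air and 203, 217, 219, 241 and 268 in vagotomised ozone, with overlap in both. It fell by 0.50 log2 units (SE 0.13, adjusted p = 0.00449) in sham rats and in vagotomised rats differed by -0.34 log2 units (SE 0.13, adjusted p = 0.0554), which passed in 12 of 34 alternative settings, edgeR and DESeq2 among them. Ifih1, the sensor of long double-stranded RNA, fell by 0.55 log2 units (SE 0.15, adjusted p = 0.00745) and fell by 0.45 log2 units (SE 0.15, adjusted p = 0.0331), and its call in vagotomised rats was lost without vagotomised air replicate 2, 3 or 6 or vagotomised ozone replicate 4 or 5 (adjusted p from 0.0548 to 0.113).

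Of 12 tested genes that carry or regulate the signal below nucleic acid sensors, 5 fell and 1 rose in sham rats, and 1 fell and 2 rose in vagotomised rats. Over all genes 13.8% fell and 14.6% rose in sham rats, and 9.63% fell and 11.4% rose in vagotomised rats. Mavs, the mitochondrial adaptor of RIG-I, fell by 0.40 log2 units (SE 0.12, adjusted p = 0.0136) in sham and rose by 0.47 log2 units (SE 0.12, adjusted p = 0.00676) in vagotomised rats. In ozone Mavs stood higher in vagotomised than in sham rats by 0.70 (SE 0.12, adjusted p = 0.00722; 542 ± 54.7, n = 5, against 338 ± 66.0, n = 6, mean ± SD), and the difference of its ozone changes, 0.87 ± 0.17 (SE), did not pass (adjusted p = 0.188). The call of Mavs was lost with only the 2 groups compared in the fit (adjusted p = 0.074). Tlr3, the endosomal receptor of double-stranded RNA, fell by 0.73 log2 units (SE 0.16, adjusted p = 0.00148) in sham rats and differed by 0.23 log2 units (SE 0.16, adjusted p = 0.35) in vagotomised rats. It too was higher in vagotomised than in sham rats in ozone, by 0.80 (SE 0.16, adjusted p = 0.0187), a call that was lost without sham ozone replicate 1 or 2 or vagotomised ozone replicate 2, 3 or 5 (adjusted p up to 0.069), and the difference of its ozone changes did not pass (0.96 ± 0.23, SE, adjusted p = 0.275). Traf6, a ubiquitin ligase of the Toll pathway, rose by 0.81 log2 units (SE 0.13, adjusted p = 6.86e-05) in sham and rose by 0.38 log2 units (SE 0.13, adjusted p = 0.0406) in vagotomised rats. Ikbke, a kinase that activates interferon regulatory factors, fell by 0.59 log2 units (SE 0.20, adjusted p = 0.0298) and fell by 0.60 log2 units (SE 0.20, adjusted p = 0.0359).

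All 7 interferon-induced GTPases fell in sham rats (median -1.26), and 4 of 7 fell in vagotomised rats (median -0.92). Irgm and Igtp belong to the immunity-related GTPases, which attack the vacuoles of intracellular pathogens. Irgm counts were 681, 859, 874, 941 and 1321 in sham air and from 183 to 413 (median 252) in sham ozone. In vagotomised rats they ran from 424 to 1159.7 (median 735) in air and stood at 194, 206, 222, 226 and 238 in ozone. Every ozone liver was below every air liver of the same surgery. Irgm fell by 1.84 log2 units (SE 0.22, adjusted p = 1.45e-06) in sham rats, 3.58-fold, and fell by 1.74 log2 units (SE 0.22, adjusted p = 5.13e-06) in vagotomised rats, 3.35-fold. Its promoter, printed above, has both motifs.

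Igtp counts were 1559, 1666, 1702, 1902 and 2564 in sham air and from 501 to 893 (median 609.8) in sham ozone. After vagotomy they ran from 922 to 1988 (median 1606) in air and were 604, 639, 718, 761 and 777 in ozone, and neither pair of groups overlapped. It fell by 1.52 log2 units (SE 0.19, adjusted p = 3.25e-06) in sham and fell by 1.07 log2 units (SE 0.19, adjusted p = 0.000298) in vagotomised rats. Mx1, a dynamin-like GTPase that blocks viral particles, had counts of 96.4, 143, 159, 218 and 229 in sham air and from 28.1 to 92.8 (median 61.8) in sham ozone, with no overlap. The vagotomised values, from 79.3 to 175 (median 133) in air and 54.7, 59.4, 70.2, 72.5 and 84.9 in ozone, overlapped. Mx1 fell by 1.38 log2 units (SE 0.26, adjusted p = 0.000373) in sham and fell by 0.93 log2 units (SE 0.26, adjusted p = 0.0127) in vagotomised rats. Its relative Mx2 differed by -1.10 (fell) and -0.68 (adjusted p = 0.0831). In vagotomised rats every ozone liver lay below every air liver for Mx2, and its change there passed in 3 of 34 alternative settings, DESeq2 among them.

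The guanylate-binding proteins Gbp2, Gbp4 and Gbp5, which coat pathogen membranes, differed by -1.26, -0.68 and -1.12 in sham rats and by -0.92, -0.62 and -0.69 in vagotomised rats. All 3 fell in sham rats, and of the 3 Gbp2 alone fell in vagotomised rats, where Gbp5 passed in 10 of 34 alternative settings, edgeR and DESeq2 among them. The sham call of Gbp4 was lost without sham air replicate 1, 3 or 5 or sham ozone replicate 1, 2 or 4, and with quantile normalisation (adjusted p from 0.0584 to 0.0914). Mx and Gbp genes have close relatives in the rat genome, and how reads that fit more than 1 copy were counted is not given in the sources used here.

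The 4 members that attach ADP-ribose or work with such enzymes fell in both groups of rats, the one role group of which this was so. Parp14, a mono-ADP-ribosyltransferase, had the smallest p of all members in both ozone comparisons. Its counts were 1421, 1810.5, 1978, 2112 and 2336 in sham air and from 638 to 1073 (median 735) in sham ozone. They ran from 1312 to 1957 (median 1798) in vagotomised air and were 631, 672, 710.02, 710.4 and 817 in vagotomised ozone, and no ozone liver reached the lowest air liver of the same surgery. Parp14 fell by 1.32 log2 units (SE 0.13, adjusted p = 2.68e-07) in sham and fell by 1.29 log2 units (SE 0.13, adjusted p = 5.94e-07) in vagotomised rats, 2.49-fold and 2.45-fold.

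Parp9 and Dtx3l form a complex that modifies ubiquitin and histones. Parp9 counts were 1154, 1217, 1272, 1294 and 1575 in sham air and from 563 to 955 (median 603) in sham ozone, and from 861 to 1329 (median 1091) in vagotomised air and 455, 488, 586, 610.3 and 673 in vagotomised ozone. Air and ozone livers did not overlap in either surgery group. Parp9 fell by 0.96 log2 units (SE 0.14, adjusted p = 2.35e-05) and fell by 0.98 log2 units (SE 0.14, adjusted p = 3.22e-05) in sham and vagotomised rats. Dtx3l fell by 1.22 log2 units (SE 0.18, adjusted p = 2.81e-05) in sham rats, and fell by 0.59 log2 units (SE 0.18, adjusted p = 0.0239) in vagotomised rats, where its call was lost without vagotomised air replicate 1 or 2 or vagotomised ozone replicate 1 (adjusted p from 0.0519 to 0.0632). Parp12, which moves to stress granules, differed by -0.50 ± 0.11 and -0.42 ± 0.11 (SE) and fell in both.

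Of 10 tested effectors that act on RNA or nucleotides, 6 fell in sham and 4 in vagotomised rats. Samd9l, a restriction factor that curbs translation, had counts of 114, 118, 156, 161 and 179 in sham air and from 44.6 to 81.9 (median 56.6) in sham ozone, which did not overlap, and from 78.3 to 168 (median 137) in vagotomised air and 63.4, 74.4, 80.7, 82.2 and 129.7 in vagotomised ozone, which did. It fell by 1.30 log2 units (SE 0.20, adjusted p = 4.26e-05) in sham and fell by 0.58 log2 units (SE 0.20, adjusted p = 0.0419) in vagotomised rats. The call in vagotomised rats was lost in 11 of 34 alternative settings, among them each of vagotomised air replicates 1, 2, 3 and 6 and vagotomised ozone replicates 1, 2, 3 and 4 left out in turn (adjusted p from 0.0602 to 0.125). Ifit2 and Ifit3 belong to a family that binds viral RNA and blocks its translation. Ifit2 had 367, 422, 431, 459.9 and 463 in sham air and from 222 to 291 (median 265) in sham ozone, with no overlap. Its vagotomised counts ran from 341 to 467 (median 406) in air and were 234, 251, 290.1, 322 and 346 in ozone, with overlap. It fell by 0.70 log2 units (SE 0.11, adjusted p = 4.60e-05) and fell by 0.50 log2 units (SE 0.11, adjusted p = 0.00211), and Ifit3 fell by 1.24 log2 units (SE 0.20, adjusted p = 5.94e-05) and fell by 0.71 log2 units (SE 0.20, adjusted p = 0.0121) in the same order.

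Rsad2, which makes a chain-terminating nucleotide, and Cmpk2, a mitochondrial nucleotide kinase, fell in sham rats (-0.78 ± 0.20 and -0.92 ± 0.25, SE) and did not pass in vagotomised rats (-0.43 ± 0.20 and -0.32 ± 0.25). Adar, which edits adenosine in double-stranded RNA, fell by 0.58 log2 units (SE 0.14, adjusted p = 0.00267) in sham and fell by 0.44 log2 units (SE 0.14, adjusted p = 0.0222) in vagotomised rats, and the second call was lost without vagotomised air replicate 2 or vagotomised ozone replicate 4 (adjusted p = 0.0511 and 0.0685). Of the oligoadenylate synthase family Oas1a and Oasl were members and did not pass, with -0.45 ± 0.17 and 0.00 ± 0.23 in sham rats (SE), nor did Eif2ak2, the kinase PKR that halts translation (-0.12 ± 0.20), or the exonuclease gene Isg20 (0.41 ± 0.30). The adjusted p of Oas1a in sham rats was 0.0533, and it passed in 12 of 34 alternative settings, among them DESeq2 and the alternatives with equal column totals, equal upper quartiles and quantile normalisation.

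Isg15 is a ubiquitin-like protein that is joined to other proteins, and of its pathway and other ubiquitin ligases 2 of 5 members fell in sham and 0 of 5 in vagotomised rats. Isg15 counts were 89.8, 94.6, 108, 133 and 159 in sham air and from 20.8 to 111 (median 42.9) in sham ozone. In vagotomised rats they ran from 75.3 to 112 (median 90.6) in air and stood at 58.6, 66.3, 76.3, 80.2 and 95.3 in ozone. The ozone range of sham rats was wide and overlapped their air range at its top, and the vagotomised groups overlapped as well. Isg15 fell by 1.30 log2 units (SE 0.29, adjusted p = 0.00172) in sham rats, 2.46-fold, and in vagotomised rats differed by -0.29 log2 units (SE 0.29, adjusted p = 0.539). The difference between the 2 ozone changes, 1.01 ± 0.41 (SE), was the largest of any member and did not pass (adjusted p = 0.468).

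Trim21, a cytosolic antibody receptor and ubiquitin ligase, had 458, 511, 585, 609.5 and 705 in sham air and from 261 to 439.7 (median 339) in sham ozone, which did not overlap. Its vagotomised counts ran from 378 to 730.4 (median 538) in air and were 331, 402, 409.97, 435 and 477 in ozone, which did overlap. It fell by 0.75 log2 units (SE 0.15, adjusted p = 0.000677) in sham rats and differed by -0.37 log2 units (SE 0.15, adjusted p = 0.0866) in vagotomised rats. Usp18, which strips Isg15 and damps the receptor, differed by -0.48 ± 0.28 in sham and 0.08 ± 0.28 in vagotomised rats (SE). Herc6, a ligase for Isg15 in rodents, differed by -0.32 ± 0.24 and -0.29 ± 0.24, and Trim25, a ligase that activates RIG-I, by 0.19 ± 0.18 and 0.34 ± 0.18, none of which passed.

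Cxcl9 and Cxcl10 encode chemokines that draw activated T and NK cells. Cxcl10 had low counts, 26.7, 26.8, 33.4, 42.5 and 74.4 in sham air and from 4.89 to 20.7 (median 11.0) in sham ozone. In vagotomised rats it ran from 21.1 to 76.2 (median 34.0) in air and stood at 2.86, 9.90, 12.5, 13.1 and 21.0 in ozone. No ozone liver reached the lowest air liver of its surgery group, though the nearest counts were close to each other. Cxcl10 fell by 1.74 log2 units (SE 0.41, adjusted p = 0.00292) in sham and fell by 1.79 log2 units (SE 0.41, adjusted p = 0.00321) in vagotomised rats. Cxcl9 had 73.2, 95.7, 123, 123 and 128 in sham air and from 37.9 to 109 (median 73.1) in sham ozone, with overlap. Its vagotomised counts ran from 81.3 to 131 (median 104) in air and were 93.2, 93.5, 98.9, 103 and 143 in ozone, which lay at about the same level. Cxcl9 fell by 0.63 log2 units (SE 0.21, adjusted p = 0.0308) in sham rats, and in vagotomised rats differed by 0.05 log2 units (SE 0.21, adjusted p = 0.909). The sham call of Cxcl9 was lost without sham air replicate 2, 4 or 5 or sham ozone replicate 1 or 4, and with only the 2 groups compared in the fit (adjusted p from 0.0707 to 0.0831).

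Of the 6 remaining interferon-stimulated members, 3 fell in both groups of rats. Rtp4, a chaperone of membrane receptors, had 653, 709, 728, 755 and 877 in sham air and from 182 to 425 (median 309) in sham ozone, and from 397 to 842 (median 631) in vagotomised air and 259, 264, 326, 336 and 360.5 in vagotomised ozone. Ozone and air livers were apart in both. It fell by 1.29 log2 units (SE 0.18, adjusted p = 1.55e-05) and fell by 0.97 log2 units (SE 0.18, adjusted p = 0.000535) in sham and vagotomised rats. Ifi35, a leucine zipper protein, had 541, 545, 553, 596 and 675 in sham air and from 315 to 447 (median 344) in sham ozone, and from 451 to 591 (median 505) in vagotomised air and 364, 376, 387, 399 and 449 in vagotomised ozone, again apart. It fell by 0.70 log2 units (SE 0.10, adjusted p = 1.52e-05) and fell by 0.37 log2 units (SE 0.10, adjusted p = 0.00968). Ifi44 differed by -1.01 ± 0.16 and -0.66 ± 0.16 (SE) and fell in both. Bst2, which tethers budding virus to the cell surface, Ifi27 and Xaf1 did not pass, with changes of -0.06, 0.11 and 0.35 in sham and -0.33, 0.05 and 0.15 in vagotomised rats.

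**Figure D2:**
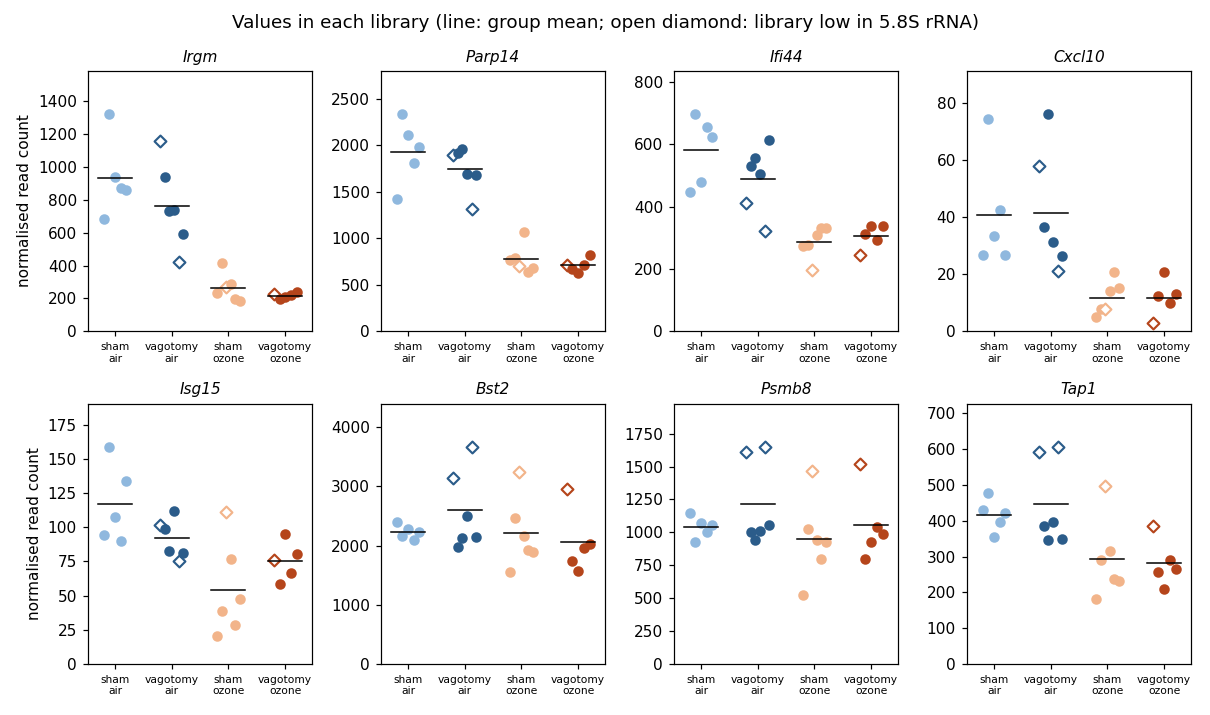
Normalised read counts of 8 members in every library by group, with each group's mean as a line, on axes that start at 0. Irgm, Parp14, Ifi44 and Cxcl10 are lower in the ozone groups, whereas for Bst2 and Psmb8 the 4 libraries low in 5.8S (open diamonds) stand above the other 18.

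Of the 8 immunoproteasome and peptide-loading genes, 1 fell in sham and 1 in vagotomised rats, counts close to the shares of all genes that fell (13.8% and 9.63%). In both cases it was Tap1, a chain of the transporter that brings peptides into the endoplasmic reticulum, and the median changes of the 8 were -0.25 and -0.15. Tap1 counts were 354, 398, 421, 429 and 478 in sham air and from 182 to 497 (median 263) in sham ozone. In vagotomised rats they ran from 347 to 606 (median 392) in air and were 208, 257, 266, 290.1 and 384 in ozone, and both pairs overlapped. Tap1 fell by 0.58 log2 units (SE 0.20, adjusted p = 0.0378) in sham and fell by 0.65 log2 units (SE 0.20, adjusted p = 0.0248) in vagotomised rats. The sham call was lost in 11 settings, among them edgeR (adjusted p = 0.0711), DESeq2 (0.0582), the replicate block (0.0983) and sham air replicates 1, 2, 4 and 5 and sham ozone replicates 1, 2, 5 and 6 left out in turn (0.0512 to 0.0998). The vagotomised call was lost without vagotomised air replicate 1 or 5 or vagotomised ozone replicate 2 or 3 (adjusted p from 0.0563 to 0.0881).

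Tapbp, the chaperone that links the transporter to MHC class I, had 435, 486, 515, 529.9 and 575 in sham air and from 387 to 496 (median 465) in sham ozone. Its counts in vagotomised rats ran from 421 to 525 (median 483) in air and were 367, 389, 421, 429 and 464 in ozone. Groups overlapped, and the changes of -0.15 ± 0.09 and -0.22 ± 0.09 (SE) did not pass. Psmb8, Psmb9 and Psmb10, the exchanged catalytic subunits, differed by -0.20 ± 0.20, -0.30 ± 0.30 and -0.33 ± 0.21 in sham and by -0.20 ± 0.20, -0.11 ± 0.30 and -0.29 ± 0.21 in vagotomised rats (SE). Psme1 and Psme2, subunits of the proteasome activator that interferon-γ raises, differed by -0.13 ± 0.08 and -0.31 ± 0.15 in sham rats, and Tap2, the second transporter chain, by -0.10 ± 0.12. None of these passed.

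The libraries low in 5.8S bear on these values. Psmb8 stood at 1469 to 1649 in those 4 libraries and 528 to 1149.98 in the other 18. Psmb9 stood at 216 to 295 in those 4 libraries and 50.1 to 149 in the other 18. Bst2 and Ifi27 were likewise apart, Bst2 at 2951 to 3667 in those 4 libraries and 1556 to 2493 in the other 18, and Ifi27 at 3418 to 4243 in those 4 libraries and 1732 to 3216 in the other 18. These were the 4 members of 50 for which all 4 libraries lay above all others, and for 0 members did they lie below. The share of all genes set apart in this way was not calculated, so the count is not read as particular to the members. Without the 4 libraries 4 of 8 immunoproteasome and loading genes fell in sham rats, with changes of -0.74 (SE 0.13, adjusted p = 0.000154) for Tap1, -0.52 (SE 0.18, adjusted p = 0.0276) for Psmb9, -0.47 (SE 0.16, adjusted p = 0.0234) for Psmb10 and -0.41 (SE 0.12, adjusted p = 0.0107) for Psme2. Psmb8 was then -0.34 (SE 0.13, adjusted p = 0.0539). Of the 4 libraries only sham ozone replicate 3 is from a sham rat, and the others enter this comparison through the shared spread of the fit. With sham ozone replicate 3 alone left out, Psme2 passed (adjusted p = 0.0381), while Psmb9 and Psmb10 did not. In vagotomised rats Tap1 alone of the 8 fell without them, by 0.54 (SE 0.14, adjusted p = 0.00955). Over all members, 35 fell in sham and 21 in vagotomised rats without the 4 libraries. Calls over all genes in either direction were also more numerous without them, at 35.8% in place of 28.4% in sham rats and 22.6% in place of 21.1% in vagotomised rats. Of the genes called without them 53.2% rose in sham rats and 54.6% rose in vagotomised rats, and the rest fell. Irgm and Parp14 were then at -1.86 and -1.29 in sham rats. What sets these libraries apart was not tested.

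Exchange of subunits was looked for in ratios within a library, in which scaling cancels except for the 1 added to each normalised count. The log2 ratios of Psmb8 to Psmb5, Psmb9 to Psmb6 and Psmb10 to Psmb7, each an exchanged subunit to its constitutive counterpart, were formed from counts not corrected for length and were compared between groups in 12 exact two-sided permutation tests, whose smallest possible p is 0.00433 for 5 against 6 libraries. In sham air the mean ratios were 1.24, 1.28 and -3.02, so that Psmb6 had fewer reads than Psmb9 while Psmb7 had more than Psmb10. Psmb9 itself ran from 50.1 to 295 over all libraries, so the ratio to Psmb6 rests on low counts. Levels this unlike mean that the ratios do not measure the share of exchanged subunits, and their source was not tested. None of the 12 tests passed after adjustment. The lowest raw p was that of Psmb9 to Psmb6 between sham ozone (1.02 ± 0.53, SD, n = 6) and vagotomised ozone (1.74 ± 0.29, SD, n = 5), a difference of 0.72 (exact permutation p = 0.026, adjusted p = 0.312). After ozone in sham rats Psmb10 to Psmb7 differed by -0.53 (exact permutation p = 0.0693, adjusted p = 0.312), the largest difference of the 3 ratios there. Without the libraries low in 5.8S, Psmb10 to Psmb7 lay from -4.29 to -3.44 in the 5 sham ozone libraries, below the -3.38 to -2.84 of sham air, a difference of -0.69 (exact permutation p = 0.00794, the smallest that 5 against 5 can give, adjusted p = 0.0952). Psmb9 to Psmb6 then differed by 0.73 between sham and vagotomised ozone, without overlap (exact permutation p = 0.0159, adjusted p = 0.0952). Among 17 constitutive proteasome and activator genes 4 rose and 0 fell in sham rats, namely Psmb4 (0.74 ± 0.11, SE), Psma3 (0.51 ± 0.13), Psme3 (0.37 ± 0.10) and Psma1 (0.36 ± 0.09). In vagotomised rats 2 rose, Psma3 (0.54 ± 0.13) and Psme3 (0.44 ± 0.10). The shares of all genes that rose were 14.6% in sham and 11.4% in vagotomised rats, and the vagotomised count of 2 is close to that share.

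The loading genes act together with MHC class I genes, of which 23 were tested in a separate list. In sham rats 4 fell and 0 rose, and in vagotomised rats 2 fell and 0 rose, counts close to the shares of all genes that fell (13.8% and 9.63%). RT1-N2, a non-classical class I gene, fell by 0.93 log2 units (SE 0.11, adjusted p = 9.69e-07) in sham and fell by 0.77 log2 units (SE 0.11, adjusted p = 1.78e-05) in vagotomised rats. RT1-M3-1, which presents formylated peptides, fell by 0.83 log2 units (SE 0.20, adjusted p = 0.00271) and fell by 0.75 log2 units (SE 0.20, adjusted p = 0.00803). RT1-T24-3 and RT1-S3 fell in sham rats (-0.87 ± 0.25 and -0.59 ± 0.20, SE). The shared light chain gene B2m differed by -0.05 ± 0.14 and 0.14 ± 0.14 and did not pass. RT1 genes are near copies of each other, so that reads may have been split among them.

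Among interferon-stimulated genes outside the member list more fell than rose after ozone. Of 48 tested, 22 fell and 1 rose in sham rats, beside 13.8% and 14.6% of all genes. In vagotomised rats 17 fell and 4 rose, beside 9.63% and 11.4%. The median changes of the 48 were -0.31 and -0.30. Ifi44l, a relative of Ifi44, fell by 1.24 log2 units (SE 0.14, adjusted p = 1.26e-06) in sham and fell by 0.91 log2 units (SE 0.14, adjusted p = 9.64e-05) in vagotomised rats. Znfx1, an RNA helicase, differed by -1.16 ± 0.14 and -0.91 ± 0.14 (SE), and Trim34, another TRIM family gene, by -1.04 ± 0.14 and -0.94 ± 0.14, and both fell in each. Tor3a, an ATPase of the endoplasmic reticulum that type I interferon can raise, rose by 2.97 log2 units (SE 0.33, adjusted p = 9.42e-07) in sham and rose by 2.83 log2 units (SE 0.33, adjusted p = 2.99e-06) in vagotomised rats. Its mean count was 154 ± 71.6 (SD, n = 5) in sham air and 1078 ± 209 (SD, n = 6) in sham ozone. It was the one gene of the 48 that rose in sham rats.

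Irf8, an interferon regulatory factor of macrophages and dendritic cells, fell in sham rats (-0.41 ± 0.13, SE), and Irf2bp2 fell in vagotomised rats (-1.14 ± 0.29). Of 13 genes that restrain or otherwise regulate the pathway, 2 rose and 2 fell in sham rats, and 3 rose and 2 fell in vagotomised rats. The sham counts are close to the shares of all genes (14.6% rose and 13.8% fell), and in vagotomised rats those shares were 11.4% and 9.63%. Ptpn1, a phosphatase of Janus kinases, rose by 0.76 log2 units (SE 0.14, adjusted p = 0.000374) and rose by 0.49 log2 units (SE 0.14, adjusted p = 0.0186). Otud4, a deubiquitinase, rose in both (0.53 ± 0.15 and 0.44 ± 0.15, SE), Pias3 rose in vagotomised rats (0.77 ± 0.19), and the phosphatase gene Ptpn6 (-0.55 ± 0.16 and -0.59 ± 0.16) and the STAT inhibitor gene Pias1 (-0.40 ± 0.11 and -0.52 ± 0.11) fell in both. Median changes of the 13 genes were 0.25 and 0.01.

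No member passed the test for vagotomy within either exposure. In air 0 of 50 members and 0% of all genes were called with limma (1 member and 387 genes had an unadjusted p under 0.05, and edgeR and DESeq2 called 0 members and 0 genes). The median member change was -0.09, and it was -0.18 without sham air replicate 1, -0.03 without sham air replicate 2 and -0.05 without vagotomised air replicate 5. The largest member change there was that of Ifit3, -0.41 ± 0.20 (SE), which was below 0. In ozone 0 members were called with limma, while 1.34% of all genes were (4 members had an unadjusted p under 0.05, and edgeR and DESeq2 called 0 members). Samd9l (0.52 ± 0.20), Cxcl9 (0.61 ± 0.21) and Isg15 (0.68 ± 0.29) stood highest in vagotomised against sham ozone livers, none past the test, and Cxcl9 had the lowest adjusted p (0.164).

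The difference between the ozone changes was tested directly. None of the 50 members and 0% of all genes passed with limma (5 members and 1147 genes had an unadjusted p under 0.05, edgeR called 0 members and 0 genes, and DESeq2 called 0 members and 16 genes). The difference, vagotomised minus sham, was above 0 for 39 of 50 members, beside 49.5% of all genes, with a median of 0.16 against -0.00 over all genes. That median was 0.08 without sham ozone replicate 1, 0.11 without sham air replicate 2 and 0.25 with equal column totals. Samd9l had the lowest adjusted p (0.72 ± 0.28, SE, adjusted p = 0.462), followed by Isg15 (1.01 ± 0.41) and Dtx3l (0.63 ± 0.26). Irgm (0.10 ± 0.30), Parp14 (0.03 ± 0.19) and Parp9 (-0.02 ± 0.20) had differences near 0. The 12 members that fell in sham rats alone by the threshold are therefore not shown to differ between the surgery groups.

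**Figure D3:**
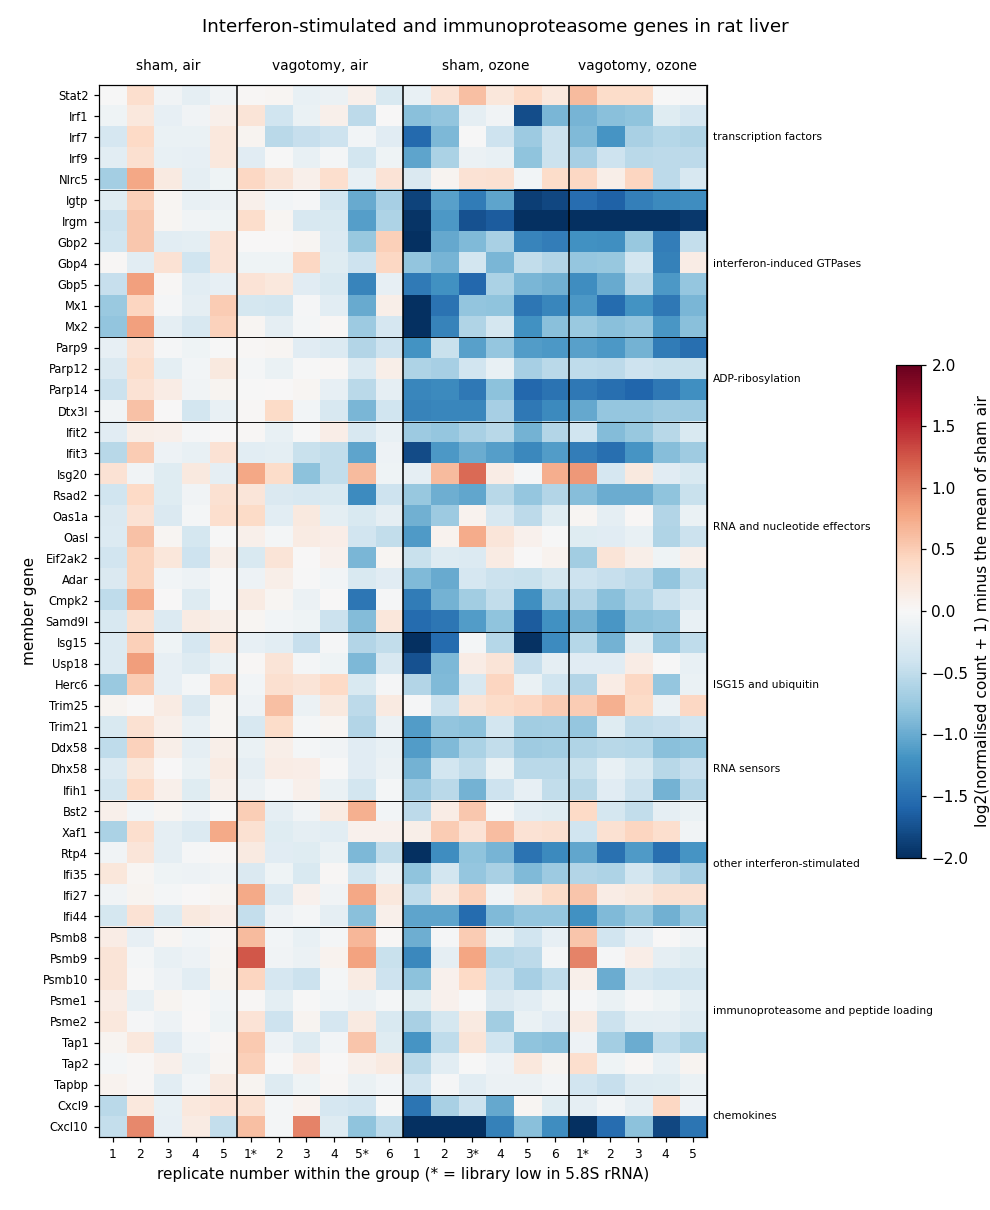
Each member (row, grouped by role) in each of the 22 libraries (column, grouped by treatment), as log2(count + 1) minus the mean of sham air, from -2 (blue) to 2 (red). The ozone columns are blue in most rows outside the immunoproteasome block, and the starred libraries low in 5.8S are red in Psmb8, Psmb9, Bst2 and Ifi27.

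The members also varied together among rats of 1 group. Sham air replicate 2 had the highest value of its 5 libraries in 34 of 50 members and sham air replicate 1 the lowest in 29. Sham ozone replicate 1 was lowest of 6 in 31 members, and vagotomised air replicate 5 was lowest of 6 in 35. Such counts were not calculated over all genes, so they are not read as particular to the members. Without sham air replicate 2, sham air replicate 5 or sham ozone replicate 1, 28 members fell in sham rats in place of 31. On deviations from the group means over all 22 libraries, the median correlation over the 1225 member pairs was 0.32, against -0.00 over all pairs of tested genes. All pairs share the same libraries, with their depth and RNA quality, and the correlations are given as a description.

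Within the 42 members outside the immunoproteasome group the median r was 0.40, within the 8 immunoproteasome and loading genes 0.56, and between both sets 0.08. Among the tightest pairs were Bst2 with Psmb8 (r = 0.93), Bst2 with Tap1 (0.92), Trim21 with Eif2ak2 (0.91), Igtp with Irgm (0.90) and Psmb8 with Psmb9 (0.90). Without the libraries low in 5.8S, over 18 libraries, the first of these was 0.76, the second 0.74 and Psmb8 with Psmb9 0.68, while Trim21 with Eif2ak2 was 0.88 and Igtp with Irgm 0.87. The medians were then 0.43 within the 42 members, 0.47 within the 8 and 0.17 between them.

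**Figure D4:**
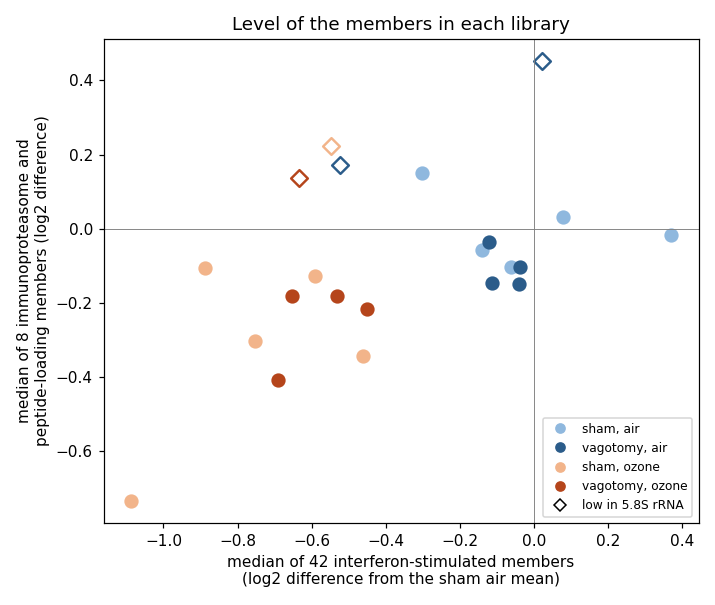
Each point is a library, placed by the median log2 difference from the sham air mean of the 42 members outside the immunoproteasome group (horizontal) and of the 8 immunoproteasome and loading genes (vertical). Ozone libraries lie at -0.45 or lower on the horizontal axis with 1 air library among them, and the libraries low in 5.8S lie high on the vertical axis.

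The median log2 difference of the 42 members from the sham air mean lay between -0.30 and 0.37 in sham air and between -0.52 and 0.02 in vagotomised air. In ozone it lay between -1.09 and -0.46 for sham rats and between -0.69 and -0.45 for vagotomised rats. The air library at -0.52 was vagotomised air replicate 5, which lay within the ozone range. For the 8 immunoproteasome and loading genes the ranges overlapped widely, from -0.10 to 0.15, from -0.15 to 0.45, from -0.73 to 0.22 and from -0.41 to 0.14 in the same order.

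Markers of immune and other liver cells were read beside the members. For scale, 13.8% of all genes fell and 14.6% rose in sham rats, and 9.63% fell and 11.4% rose in vagotomised rats. Summed counts of 12 Kupffer cell and macrophage markers ran from 8217 to 10184 in sham air, and reached 7301 to 10458 with ozone, with 7169.6 to 11862 and 7119.7 to 14178 in vagotomised air and ozone. Of these 12, Cd68 and Cd5l fell in sham rats and 0 passed in vagotomised rats. Lymphocyte markers were sparse, with sums over the 9 NK cell markers read of 93.6 to 159 in sham air, 70.8 to 146 in sham ozone, 89.3 to 127 in vagotomised air and 53.8 to 141 in vagotomised ozone, and 0 of 4 tested passed. The sums over 5 T cell markers, most of it Cd4, were 225 to 265, 152 to 354, 199.9 to 351 and 131 to 319 in the order sham air, sham ozone, vagotomised air and vagotomised ozone, with 0 of 2 tested passing and Cd3e at 7.14 or less in every library. These sums therefore follow Cd4 and are not read as T cell content. Of 2 tested neutrophil markers Csf3r fell in both groups of rats, and the sums over 4 markers were 42.5 to 72.9 and 20.7 to 42.5 in sham air and ozone, and 34.0 to 79.1 and 19.1 to 88.6 in vagotomised air and ozone. Of 5 tested dendritic cell markers 1 fell and 1 rose in sham rats and 0 passed in vagotomised rats, with sums of 162 to 241 in sham air and 167 to 236 in sham ozone. Of 9 stellate cell markers Pdgfrb (-0.87) and Col3a1 (-0.80) fell and Dcn (1.27) rose in sham rats and 0 passed in vagotomised rats, with a median change of -0.41 in sham rats and sums of 4668 to 8062 in sham air and 3548 to 6441 in sham ozone. Of 8 endothelial markers Tek fell in sham rats (-0.38; list median -0.29) and Lyve1 rose in vagotomised rats (0.51), with sums of 4058 to 4891 and 3470.1 to 5375 in sham air and ozone. Of 4 tested cholangiocyte markers 0 passed. Of 10 hepatocyte markers Hnf4a (0.69) and Cps1 (0.51) rose and Fga (-0.34) fell in sham rats, and Apoa1 (0.37) rose and Fga (-0.47) fell in vagotomised rats. The 3 B cell markers listed summed to 17.9 or less in every library and were not tested. No listed marker stood at 0 in every library, and the other markers of the lists were not analysed here. The part of these cells in the lower values of the members was not tested.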

How the data were processed

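The 22 livers were assigned to 4 groups by the labels. The values the authors deposited are a normalised signal, in which the reads of a gene were divided by 1 size factor per library. Dividing by the step between low values gave whole reads for 100% of values (tolerance 0.001). The submitters' processing notes name STAR, Partek, DESeq, DESeq2 and build rn6, with roles and versions not given in the sources used here. The 51 members and the gene lists were chosen with earlier results of these data known.

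A mean of 10 or more normalised counts over all libraries was required, which kept 12424 of 14971 genes (83.0%), and these were tested as log2(value + 1) with limma 3.58.1 in R 4.3.3 (trend, 4 group means, Benjamini-Hochberg adjustment, threshold 0.05). Fold changes are on that scale, which understates low genes. Values in every library are given for the 2 members of each role group with the smallest p over both ozone comparisons and for the 5 largest falls, and from each pathway list up to 4 called genes with the smallest p per ozone comparison are named. Alternatives were edgeR 4.0.16 and DESeq2 1.42.0 on the recovered reads, other pseudocounts, minima and scalings, a replicate block, a fit of only the 2 groups, and leaving out libraries. For ozone in sham rats limma called 3526 genes, edgeR 3532 and DESeq2 3750, and in vagotomised rats edgeR called 2684 and DESeq2 2909. Leaving out the 4 libraries low in 5.8S for correlations and ranges was chosen after seeing the data. The test code was checked on simulated data. Ratios were compared by exact permutation (scipy 1.17.1).

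Libraries of a group differed by more than the sampling noise in all 50 pairs compared. Over 20 same-numbered pairs of libraries, deviations from group means correlated from -0.32 to 0.61 and 6 exceeded 0.1, so the numbers were not taken as pairs. Some genes of the pathway lists are not reported here.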

Additional observations from a re-analysis of the deposited data

Results flagged for a closer look

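In 9 of 200 sets of values, each 1 member in 1 group, a single library stood apart from the others of its group by Dixon's test at the 95% level, where chance gives about 10.

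Vagotomised air replicate 5, a library low in 5.8S, stood low for Gbp5 (43.2, others 88.1 to 133) and for the nucleotide kinase gene Cmpk2 (45.2, others 114 to 139.5). Sham ozone replicate 3, also low in 5.8S, was low for Ifi44 (196, others 274 to 333). Vagotomised ozone replicate 1, the third such library, was low for Dtx3l (731, others 862 to 904).

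The other sets came from other libraries. Sham ozone replicate 4 was high for Dtx3l (936, others 549.9 to 611), and sham ozone replicate 1 was low for Ifit3 (53.7, others 76.2 to 93.7). Sham air replicate 2 was high for Usp18 (886, others 413 to 455). Vagotomised ozone replicate 4 was low for Mx2 (706, others 883 to 942) and high for Cxcl9 (143, others 93.2 to 103).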

How the results depend on the processing

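Of the 31 members that fell in sham rats 27 passed in every alternative setting that tested them, as did 14 of the 19 in vagotomised rats, and no called member changed sign. There were 34 such settings, or 33 for Cxcl10 and Gbp4, which missed the minimum mean of 50. The calls that were lost in at least 1 setting are those of Irf7, Gbp4, Cxcl9 and Tap1 in sham rats and Adar, Dtx3l, Ifih1, Samd9l and Tap1 in vagotomised rats. Of members that did not pass, 7 in sham and 12 in vagotomised rats passed in at least 1 setting, most often Oas1a in sham rats and Dhx58, Irf9 and Gbp5 in vagotomised rats. With single libraries left out, 28 to 33 members fell in sham and 15 to 25 in vagotomised rats, and 0 to 1 rose in each (Xaf1 without sham air replicate 5, and Stat2 without sham ozone replicate 1 or vagotomised ozone replicate 4 or 5). With the replicate number as a block 30 members fell in sham and 19 in vagotomised rats, and the block ended the calls of Tap1 in sham and Samd9l in vagotomised rats. Same-numbered libraries share only a number (3 of 20 pairs correlated best with their own number).

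Of all genes tested, 1.34% passed for vagotomy in ozone, and 0.684% with quantile normalisation, 2.95% with DESeq2, 0.113% with only the 2 groups in the fit, 2.19% without the 4 libraries low in 5.8S and 0.153% to 1.75% with single libraries left out (0.612% or less without sham ozone replicate 1 or 2 or vagotomised ozone replicate 2, 3, 4 or 5). The member median of that comparison, 0.10, was 0.21 with equal column totals and 0.01, 0.07 and 0.06 without sham ozone replicate 1 and vagotomised ozone replicates 3 and 5. With equal column totals 85.5% of the genes called there rose, in place of 60.2%. For the difference of the ozone changes DESeq2 called 0.129% of genes, and single libraries left out gave 0% to 0.00805%. The cause of these differences was not tested. Low counts limit the precision for Cxcl10, Isg20 and Gbp4, for the ratio of Psmb9 to Psmb6 and for the lymphocyte and neutrophil markers.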
